A study of Homo sapiens with 14 samples.

Results

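The 41 genes described here encode parts of the lysosome and of the autophagy pathway that feeds it. They were listed by name as lysosomal and autophagy genes, with earlier results of these data known. The shares of members called below are therefore not those of a list drawn up independently of the data. The names were matched to the gene symbols of the count tables, and all 41 were found among the 26732 gene names shared by both tables. Libraries were prepared from total RNA and sequenced on a NextSeq 500. A549 and H1792, both human lung adenocarcinoma lines, were given either the solvent DMSO or 0.1 µM AMG900, an inhibitor of the Aurora mitotic kinases, and RNA was collected 48 h later. The 4 groups were A549 with DMSO (n = 4), A549 with AMG900 (n = 4), H1792 with DMSO (n = 3) and H1792 with AMG900 (n = 3). A549 cells grew in DMEM and H1792 cells in RPMI 1640, so line and medium cannot be told apart. Per the labels replicates were separate dishes, 3 for each treatment although A549 has 4 libraries, and nothing is said of separate days, so p-values measure only the spread between these samples.

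Lysosomes break down proteins, glycans, lipids and cargo delivered by autophagy, with hydrolases that work at the acid pH set by a proton pump, the V-ATPase. The transcription factor TFEB, which the growth-sensing kinase complex mTORC1 holds in the cytoplasm, binds a short palindromic motif (the CLEAR element, built on the E-box CACGTG) in the promoters of many lysosomal genes. In autophagy, WIPI proteins mark the forming membrane, LC3 and GABARAP proteins are coupled to it, and receptors such as SQSTM1 (p62) bring in cargo.

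RefSeq promoter windows of 300 bases (GRCh38.p14, 250 bases before to 50 after the start site) were held for 30 of the 41 members. The core of the palindrome was searched on both strands as its 8-letter parts GTCACGTG and TCACGTGA, which overlap each other and the E-box CACGTG. The motif is known from promoters of lysosomal genes, which the members were listed as, so a higher share among them is no independent result. At least 1 window of 7 members held GTCACGTG (LAMP1, MCOLN1, CLN3, CTSA, CTSD, GAA and ATP6V0D1), 23.3% of the 30 against 2.93% of the 27305 genes in the table. The share for TCACGTGA was 20% against 1.18%, and for CACGTG 33.3% against 8.77%, with CD63, CTSF and NEU1 added. The windows of 5 of these are shown because their genes span the responses seen below, from the large rise of GAA to ATP6V0D1, which fell in H1792. Capitals mark a match to GTCACGTG or TCACGTGA on either strand.
GAA, chr17:80101331-80101630, plus strand: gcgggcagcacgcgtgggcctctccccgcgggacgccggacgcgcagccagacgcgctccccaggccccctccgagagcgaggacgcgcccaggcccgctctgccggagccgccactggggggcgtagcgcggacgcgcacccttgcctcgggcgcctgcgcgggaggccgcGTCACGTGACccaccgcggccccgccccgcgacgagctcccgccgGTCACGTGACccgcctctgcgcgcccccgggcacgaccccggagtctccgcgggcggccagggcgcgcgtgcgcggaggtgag
CTSA, chr20:45891085-45891384, plus strand: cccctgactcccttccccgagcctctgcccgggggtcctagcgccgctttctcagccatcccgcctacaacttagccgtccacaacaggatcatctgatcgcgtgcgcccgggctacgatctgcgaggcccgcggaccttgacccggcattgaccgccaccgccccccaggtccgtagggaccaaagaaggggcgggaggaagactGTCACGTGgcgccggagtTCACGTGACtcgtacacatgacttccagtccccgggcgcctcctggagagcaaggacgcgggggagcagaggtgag
CTSD, chr11:1763878-1764177, minus strand: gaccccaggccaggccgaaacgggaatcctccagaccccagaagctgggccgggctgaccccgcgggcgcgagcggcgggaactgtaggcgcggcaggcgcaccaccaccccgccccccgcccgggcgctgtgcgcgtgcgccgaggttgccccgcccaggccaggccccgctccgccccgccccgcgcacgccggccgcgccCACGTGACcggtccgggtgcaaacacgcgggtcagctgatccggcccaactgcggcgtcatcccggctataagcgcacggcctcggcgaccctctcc
LAMP1, chr13:113296989-113297288, plus strand: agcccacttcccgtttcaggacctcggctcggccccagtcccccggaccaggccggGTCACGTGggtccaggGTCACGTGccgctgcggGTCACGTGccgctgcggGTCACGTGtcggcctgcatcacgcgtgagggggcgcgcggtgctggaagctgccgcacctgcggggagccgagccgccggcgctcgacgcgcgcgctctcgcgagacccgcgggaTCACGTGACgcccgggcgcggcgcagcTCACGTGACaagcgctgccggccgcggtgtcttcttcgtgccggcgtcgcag
ATP6V0D1, chr16:67481108-67481407, minus strand: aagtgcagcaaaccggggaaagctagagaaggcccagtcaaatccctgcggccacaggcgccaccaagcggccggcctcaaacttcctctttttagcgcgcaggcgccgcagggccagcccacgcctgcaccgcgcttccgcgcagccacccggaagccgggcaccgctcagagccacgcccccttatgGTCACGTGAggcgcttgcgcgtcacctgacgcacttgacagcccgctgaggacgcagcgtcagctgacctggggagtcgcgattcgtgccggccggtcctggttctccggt
The GAA window held 2 separate full palindromes between 78 and 24 bases before the start site. LAMP1 held 6 matches, from 194 bases before the start to 7 bases after it. CTSA held 2 matches, CTSD 1 and ATP6V0D1 1. A match describes letters in the window and was not tested as a binding site.

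The 14 libraries held 4254644 to 18962883 gene counts in A549 and 42810734 to 79984064 in H1792. A549 DMSO replicate 1 was the shallowest, and its counts stood farther from the other A549 DMSO libraries (chi-square per gene 13.8 to 16.6) than those did from each other (3.31 to 4.75). Both lines held high counts of 2 epithelial keratins (KRT8 at least 16738 and KRT18 at least 7097 in every library). The 5 epithelial markers summed to 4473 to 5652 CPM with DMSO and 6107 to 6878 CPM with AMG900 in A549. In H1792 their sums were lower, at 659 to 819 and 818 to 830 CPM, and CDH1 held only 25 to 71 counts. EPCAM was near 0 in A549 (1 to 10 counts), and the lung lineage factor NKX2-1 held 0 to 4 counts in all libraries. Of the 5 immune and macrophage markers, the leukocyte gene PTPRC held 0 to 4 counts and CD163 0 to 6, while CD14 was present, at 22 to 184 counts. The summed level of that list was 2.09 to 6.53 CPM with DMSO and 10.4 to 12.4 CPM with AMG900 in A549, and 1.53 to 1.76 and 2.51 to 3.16 CPM in H1792, most of it CD14. The 4 fibroblast markers, led by COL1A1, summed to 84.9 to 120.3 CPM with DMSO and 39.5 to 48.2 CPM with AMG900 in A549, and to 2079 to 2682 and 1560 to 1602 CPM in H1792. The 3 endothelial markers summed to 3.91 to 16.1 CPM with DMSO and 8.09 to 9.15 CPM with AMG900 in H1792; the highest DMSO value was replicate 2, from VWF (517 counts against 15 to 43 in the other H1792 libraries). A549 DMSO replicate 2 also stood out for VWF (64 counts against 1 to 13), while PECAM1 and CDH5 were low in that library (1 and 0 counts). PECAM1 and CDH5 were higher in the H1792 AMG900 libraries (358 to 564 and 21 to 27 counts) than in the DMSO libraries (191 to 264 and 3 to 5 counts). The part of these markers in the results was not tested. Without H1792 DMSO replicate 2, 14 members rose and 7 fell in H1792 (15.5% and 18.8% of all genes), against 13 and 6 with it. H1792 DMSO replicate 1 stood farthest from the others of its group (chi-square per gene 48.3 and 22.7, against 14.8 between replicates 2 and 3). Without H1792 DMSO replicate 1, 17 members rose and 9 fell in H1792 (20.1% and 24.1% of all genes). Without A549 DMSO replicate 1, 25 members rose and 3 fell in A549 (21.4% and 22.1% of all genes), against 24 and 2 with it. In bulk RNA, fewer cells in a given state and less RNA per cell cannot be told apart.

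In A549, more lysosomal genes rose than fell with AMG900. Of the 41 members, all of which passed the filter on low counts, 24 rose, 2 fell and 15 did not pass the test at an adjusted p of 0.01. That is 58.5% of members higher, where 17.2% of the 13174 genes tested were called higher, and 4.88% lower, where 17.8% of all genes were called lower. The median log2 fold change was 0.39 over the members (from -0.58 to 1.49) and -0.01 over all genes tested. With DESeq2, 24 rose and 3 fell (19.4% and 20.1% of all genes), and with a 2-fold minimum 6 rose and 0 fell (5.28% and 5.84% of all genes). The libraries of the groups did not overlap for 28 members (68.3%), against 43.9% of all genes. Together the members took 1.30% to 1.33% of all gene counts in the DMSO libraries and 1.84% to 1.90% with AMG900, and 4 genes (SQSTM1, PSAP, CTSD and CTSB) supplied 64.6% of the members' counts. By role, 8 of 9 proteases, 6 of 11 glycosidases and sulfatases, 4 of 8 membrane proteins, 3 of 4 autophagy genes, 2 of 3 proton pump genes and 1 of 5 lipid-handling genes rose. Values below are CPM (gene counts scaled to 1 common library size, with TMM factors within each line) in replicate order, fold changes are log2 ± standard error, and adjusted p is from edgeR's quasi-likelihood test with Benjamini-Hochberg adjustment over all genes tested. For a single gene the smallest two-sided exact permutation p is 0.0286 in A549 and 0.1 in H1792.

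**Figure D1:**
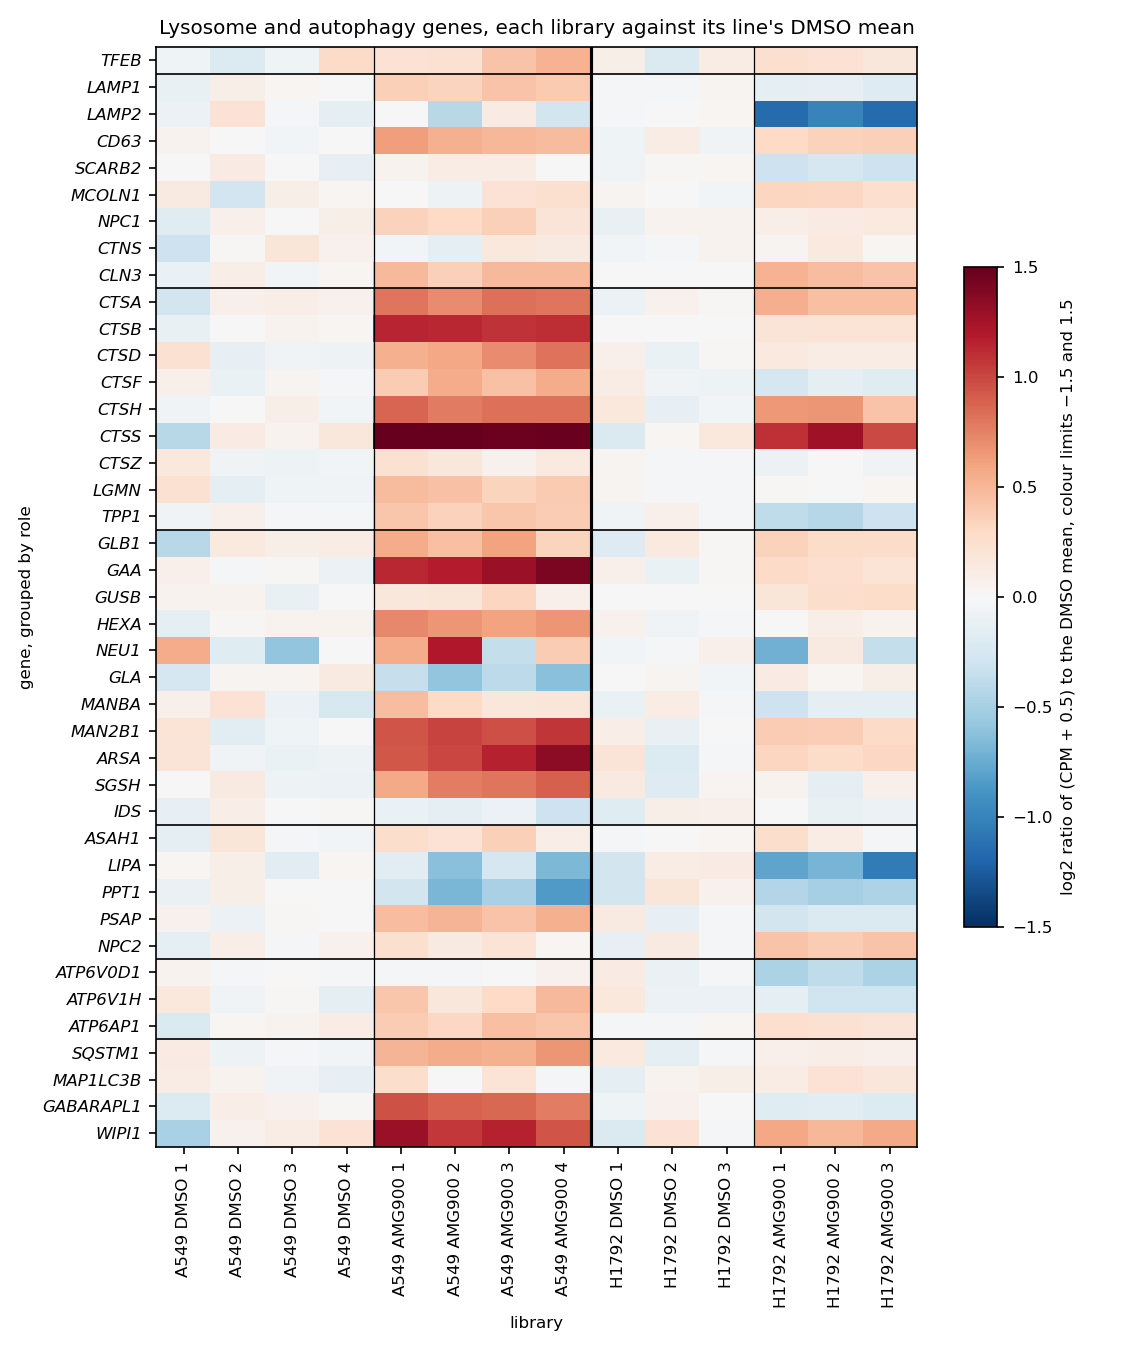
Each row is 1 of the 41 genes, ordered by role, and each column 1 of the 14 libraries; colour gives the log2 ratio of CPM + 0.5 to the mean of the same line's DMSO libraries, with colours limited at -1.5 and 1.5. Most A549 AMG900 columns are red among the proteases and glycosidases, while the H1792 AMG900 columns are paler and are bluest at LAMP2 and LIPA.

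The proteases were the class with the highest share called higher in A549, 8 of 9, with changes from 0.15 to 1.49. CTSB, an abundant cysteine cathepsin, stood at 1076, 1166, 1205 and 1185 CPM with DMSO and at 2554, 2528, 2450 and 2486 CPM with AMG900. Every treated library was more than 2-fold above its highest control, and the change was 1.11 ± 0.06, adjusted p = 1.2e-09. CTSS, a cysteine protease best known from antigen presentation, stood at 26.8, 39.1, 37.4 and 40.2 CPM with DMSO and 104, 105, 100.3 and 101 CPM with AMG900. It had the largest called rise of any member in this line (1.49 ± 0.10, adjusted p = 4.1e-08). CTSH, an aminopeptidase, stood at 37.4, 39.0, 41.4 and 37.6 CPM and then at 71.4, 67.1, 69.0 and 69.3 CPM (0.83 ± 0.08, adjusted p = 1.2e-06).

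CTSA, a carboxypeptidase that also shields β-galactosidase and sialidase, stood at 281, 359, 364 and 355 CPM with DMSO and 592, 556, 600.1 and 594 CPM with AMG900. The groups were well apart although DMSO replicate 1 was the lowest library by a wide gap (0.78 ± 0.08, adjusted p = 2.0e-06). CTSD, the main aspartic protease of the lysosome, stood at 1724, 1355, 1425 and 1403 CPM with DMSO and 2142, 2216, 2418 and 2588 CPM with AMG900 (0.67 ± 0.08, adjusted p = 1.3e-05). Here DMSO replicate 1 was the highest control and still lay below all treated libraries. CTSF (0.49 ± 0.08, adjusted p = 2.2e-04), the asparagine-specific protease LGMN (0.42 ± 0.08, adjusted p = 8.8e-04) and the tripeptidyl peptidase TPP1 (0.39 ± 0.07, adjusted p = 2.0e-04) also rose. CTSZ was the member of this class that did not pass the test (0.15 ± 0.07, adjusted p = 0.0821).

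Among the glycosidases and sulfatases, the glycogen-degrading enzyme GAA (GRCh37 chromosome 17, 78075332 to 78093680, plus strand) changed most. GAA stood at 180.5, 169.8, 174 and 161 CPM with DMSO and 374, 387, 421 and 458 CPM with AMG900. The lowest treated library was over 2-fold above the highest control, and the change was 1.26 ± 0.08, adjusted p = 7.2e-09. ARSA, which removes sulfate from sulfatide, stood at 46.1, 38.7, 37.5 and 38.2 CPM and then 77.2, 80.7, 89.7 and 102 CPM (1.14 ± 0.10, adjusted p = 6.9e-07). MAN2B1, the lysosomal α-mannosidase, stood at 84.1, 65.1, 69.9 and 73.4 CPM and then 141, 148, 144 and 155 CPM (1.01 ± 0.08, adjusted p = 2.2e-07). Neither gene's groups overlapped, and for both DMSO replicate 1 was the highest control.

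SGSH, a sulfatase of heparan sulfate breakdown, stood at 20.9, 23.0, 19.8 and 19.6 CPM with DMSO and 31.2, 35.9, 36.7 and 39.1 CPM with AMG900 (0.78 ± 0.11, adjusted p = 4.1e-05). HEXA, the α subunit of β-hexosaminidase A, stood at 293, 324, 334 and 332 CPM with DMSO and 529.5, 507, 489.5 and 506 CPM with AMG900 (0.66 ± 0.06, adjusted p = 1.2e-06). All treated libraries exceeded all controls for both genes. GLB1, lysosomal β-galactosidase, also rose (0.48 ± 0.11, adjusted p = 0.00187). GLA, the α-galactosidase missing in Fabry disease, went the other way (-0.49 ± 0.09, adjusted p = 6.3e-04). GUSB, IDS and MANBA did not pass the test, with log2 fold changes of 0.20, -0.16 and 0.30. Pseudogene copies of GUSB and IDS could take or give reads. NEU1, the lysosomal sialidase, had 2 to 25 counts per library, so its counts give no usable level. The 15 coding genes from 100 kb before to 100 kb after it, NEU1 included, were mostly low too, with a median of their highest counts of 3 in A549 and 10 in H1792, against 108 and 341 over 18185 coding genes. Exceptions were HSPA1B in H1792 (330 to 1143 counts, and 19 to 97 in A549) and CFB in A549 (1 to 112 counts, and 6 to 18 in H1792).

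The transcription factor gene TFEB itself was weakly expressed and stood at 9.16, 8.28, 9.19 and 11.8 CPM with DMSO and 11.2, 11.4, 13.1 and 14.0 CPM with AMG900. The groups overlapped, and the change did not pass the test (0.36 ± 0.15, adjusted p = 0.0677). LAMP1, an abundant glycoprotein of the lysosomal membrane, stood at 263, 301, 289 and 282 CPM with DMSO and 365, 356, 382 and 374 CPM with AMG900. Its groups did not overlap (0.38 ± 0.06, adjusted p = 2.3e-04). LAMP2, its paralog with roles in autophagosome fusion and chaperone-mediated autophagy, stood at 66.3, 81.7, 69.3 and 64.2 CPM with DMSO and 70.0, 52.6, 76.5 and 58.2 CPM with AMG900. These groups overlapped widely (-0.13 ± 0.12, adjusted p = 0.386). CD63, a tetraspanin of late endosomes and exosomes, stood at 650.2, 623, 607 and 623 CPM with DMSO and 969.9, 905, 882 and 872 CPM with AMG900, again without overlap (0.54 ± 0.06, adjusted p = 4.9e-06).

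Among the other membrane proteins, the cholesterol exporter NPC1 (0.30 ± 0.07, adjusted p = 0.00364) and CLN3, the protein affected in juvenile Batten disease (0.45 ± 0.07, adjusted p = 1.6e-04), rose in A549. SCARB2, which carries glucocerebrosidase to the lysosome, the calcium channel MCOLN1 and the cystine exporter CTNS lay between 0.02 and 0.11 and did not pass the test. Of the proton pump genes, the accessory subunit ATP6AP1 (0.39 ± 0.08, adjusted p = 7.3e-04) and the cytosolic subunit ATP6V1H (0.36 ± 0.10, adjusted p = 0.0091) rose, while the membrane-sector subunit ATP6V0D1 stood at 0.00 ± 0.06. The ATP6V1H call was close to the threshold and was lost without any 1 of 6 libraries (AMG900 replicates 1, 3 and 4 and DMSO replicates 2, 3 and 4, adjusted p = 0.0195 to 0.04). NPC1 lost its call without AMG900 replicate 1, 2 or 3 or DMSO replicate 3 (adjusted p = 0.0112 to 0.0151).

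The autophagy genes SQSTM1, GABARAPL1 and WIPI1 rose in A549, and MAP1LC3B did not pass the test. SQSTM1, the cargo receptor p62 (GRCh37 chromosome 5, 179233398 to 179265078, plus strand), stood at 3409, 2955, 3090 and 3032 CPM with DMSO and 4444, 4592, 4523 and 4924 CPM with AMG900 (0.57 ± 0.06, adjusted p = 3.1e-06). GABARAPL1, a member of the ubiquitin-like family coupled to autophagic membranes, stood at 28.9, 35.8, 35.0 and 33.9 CPM and then 65.1, 62.2, 61.1 and 57.2 CPM (0.87 ± 0.09, adjusted p = 3.2e-06). WIPI1, which binds phosphoinositides on the forming autophagosome, stood at 20.2, 29.7, 30.9 and 33.0 CPM and then 70.8, 60.0, 63.9 and 55.1 CPM (1.10 ± 0.13, adjusted p = 7.8e-06). None of these 3 genes had overlapping groups. MAP1LC3B, the LC3 gene used most often as an autophagosome marker, stood at 84.1, 80.4, 75.0 and 71.6 CPM with DMSO and 93.8, 77.9, 89.8 and 77.1 CPM with AMG900, and its groups overlapped (0.13 ± 0.09, adjusted p = 0.252). Reads of MAP1LC3B and its near-identical copy MAP1LC3B2 may have been split.

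The lipid-handling genes did not move together. PSAP, the precursor of the saposin cofactors and among the most abundant members, rose (0.49 ± 0.06, adjusted p = 6.2e-06). PPT1, which removes palmitate from proteins, stood at 38.8, 44.3, 41.7 and 41.9 CPM with DMSO and 34.3, 25.6, 29.7 and 22.8 CPM with AMG900 and fell, with no overlap (-0.58 ± 0.12, adjusted p = 0.00133). The acid lipase LIPA (-0.42 ± 0.13, adjusted p = 0.0178), the acid ceramidase ASAH1 (0.23 ± 0.08, adjusted p = 0.0308) and the cholesterol carrier NPC2 (0.15 ± 0.07, adjusted p = 0.0943) did not pass the test.

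**Figure D2:**
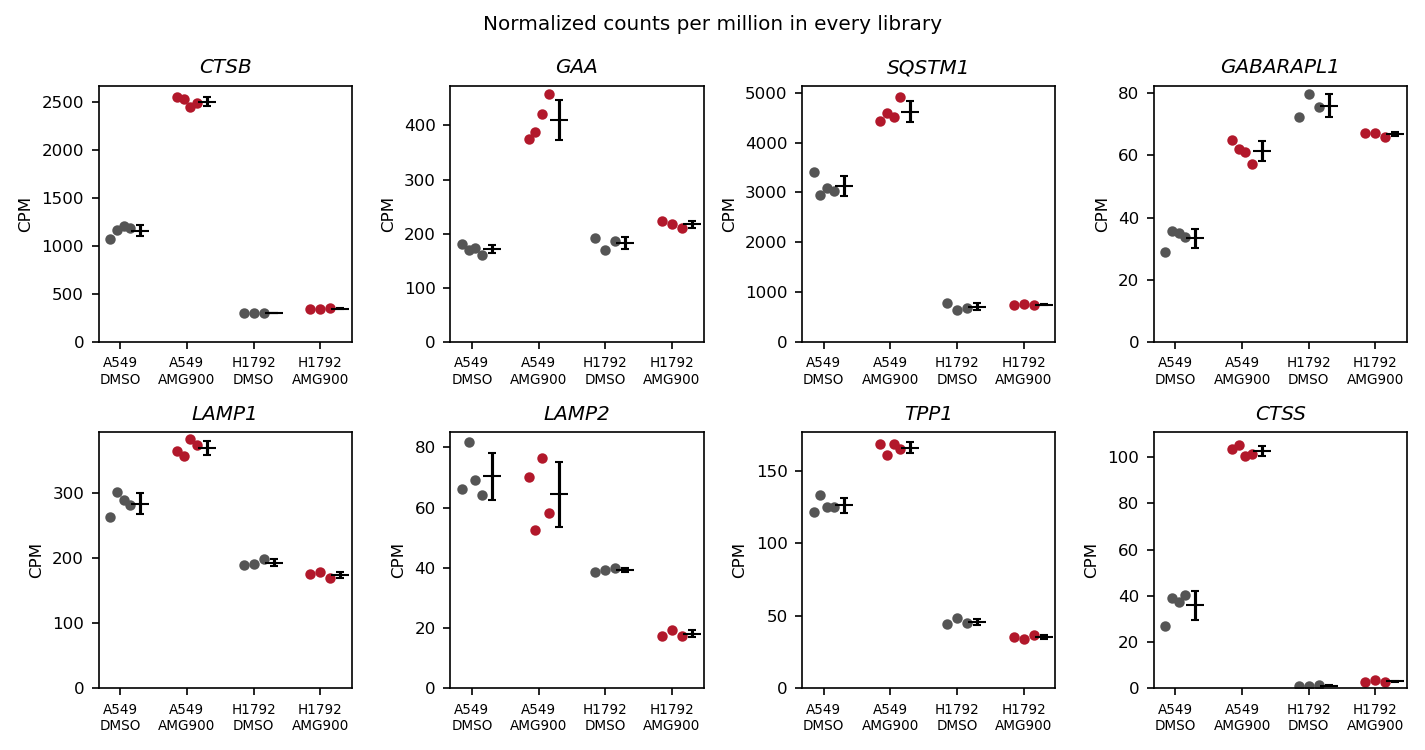
Normalized CPM of 8 genes in every library (points, red with AMG900 and grey with DMSO), with the mean and SD of each group beside the points; each vertical axis starts at 0. CTSB, GAA and SQSTM1 rose in A549 with little change in H1792, LAMP2 fell in H1792, TPP1 moved in opposite directions and CTSS rose in both lines from very different levels.

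In H1792 the response was smaller and mixed. Of the 41 members, 13 rose, 6 fell and 22 did not pass the test. That is 31.7% of members higher, where 16.2% of the 15017 genes tested were called higher, and 14.6% lower, where 18.8% were called lower. In either direction 35.1% of all genes tested were called here, and 35% in A549. The median log2 fold change was 0.08 (from -1.13 to 1.45), beside 0.01 for all genes. Groups did not overlap for 31 members (75.6%), where 59.7% of all genes did not. The members took 0.530% to 0.539% of gene counts with DMSO and 0.529% to 0.534% with AMG900. The count of members higher fell to 8 without AMG900 replicate 1 (9.13% of all genes), 7 without AMG900 replicate 2 (9.52%) and 7 without DMSO replicate 3 (9.89%). The share of all genes called higher thus fell as well, from 16.2%. DESeq2 gave 15 higher and 7 lower (18.3% and 21.6% of all genes), and a 2-fold minimum 1 and 1 (3.17% and 5.2%). The H1792 calls of CTSB, GAA, ATP6AP1 and PPT1 were lost without any 1 of AMG900 replicates 1, 2 and 3 and DMSO replicate 3 (adjusted p = 0.0109 to 0.0314 in edgeR). Those of CTSH and MCOLN1 were lost without AMG900 replicate 1 or 2 or DMSO replicate 3, that of GUSB without AMG900 replicate 2 or 3 or DMSO replicate 3, and that of SCARB2 without AMG900 replicate 1 or 3 or DMSO replicate 3 (adjusted p = 0.0101 to 0.0246). Correction for transcript GC content left 6 higher and made 13 lower (14.5% and 23.2% of all genes), as described below.

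The largest increase in H1792 was again that of a protease. CTSS stood at 0.887, 1.15 and 1.30 CPM with DMSO and 2.94, 3.39 and 2.70 CPM with AMG900, a low level with wide relative separation (1.45 ± 0.20, adjusted p = 1.9e-04). CTSH stood at 5.47, 4.41 and 4.70 CPM with DMSO and 7.93, 7.97 and 6.71 CPM with AMG900 (0.63 ± 0.12, adjusted p = 0.00181). All treated libraries of both cathepsins lay above all controls, and the CTSH call was lost without AMG900 replicate 1 or 2 or DMSO replicate 3 (adjusted p = 0.0108 to 0.0131). CTSA (0.48 ± 0.06, adjusted p = 7.9e-05) and CTSB (0.20 ± 0.05, adjusted p = 0.00416) rose as well. TPP1, higher in A549, fell here (-0.38 ± 0.06, adjusted p = 7.9e-04). CTSD, CTSF, CTSZ and LGMN lay between -0.20 and 0.12 and did not pass the test.

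WIPI1 stood at 33.8, 45.9 and 38.5 CPM with DMSO and 59.3, 55.8 and 58.5 CPM with AMG900 and was the autophagy gene that rose in H1792 (0.56 ± 0.10, adjusted p = 8.8e-04). SQSTM1 stood at 777, 640.3 and 687 CPM with DMSO and 740.3, 753 and 738 CPM with AMG900, with the treated libraries inside the range of the controls (0.08 ± 0.07, adjusted p = 0.319). For GABARAPL1 the values were 72.5, 79.8 and 75.7 CPM with DMSO and 67.2, 67.4 and 66.1 CPM with AMG900. They did not overlap, and the small decrease missed the threshold (-0.18 ± 0.06, adjusted p = 0.02). MAP1LC3B stood at 65.0, 74.5 and 76.6 CPM and then 78.0, 83.8 and 81.2 CPM (0.17 ± 0.07, adjusted p = 0.0651).

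LAMP2 fell furthest of the members in H1792. LAMP2 (GRCh37 chromosome X, 119560003 to 119603220, minus strand) stood at 38.8, 39.3 and 40.0 CPM with DMSO and 17.4, 19.4 and 17.4 CPM with AMG900. The highest treated library, at 19.4 CPM, lay below the lowest control, at 38.8 CPM, and the change was -1.13 ± 0.07, adjusted p = 2.5e-06. LAMP1 stood at 190.0, 190.4 and 199 CPM with DMSO and 175, 178 and 169 CPM with AMG900, lower in all treated libraries but short of the threshold (-0.15 ± 0.05, adjusted p = 0.0286). CD63 (0.34 ± 0.06, adjusted p = 9.6e-04), MCOLN1 (0.30 ± 0.06, adjusted p = 0.00262) and CLN3 (0.48 ± 0.06, adjusted p = 9.2e-05) rose, and SCARB2 fell (-0.29 ± 0.06, adjusted p = 0.00146). TFEB stood at 7.87, 6.30 and 8.02 CPM and then 8.86, 8.66 and 8.42 CPM (0.22 ± 0.11, adjusted p = 0.117).

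Enzymes of glycan and lipid breakdown diverged in H1792. GAA (0.25 ± 0.06, adjusted p = 0.00538), GUSB (0.24 ± 0.05, adjusted p = 0.00291) and MAN2B1 (0.35 ± 0.06, adjusted p = 0.00117) rose, and the other 8 glycosidases and sulfatases did not pass the test. LIPA stood at 6.82, 9.13 and 9.21 CPM with DMSO and 4.64, 4.99 and 3.79 CPM with AMG900 and fell without overlap (-0.90 ± 0.15, adjusted p = 6.3e-04). PPT1 fell (-0.47 ± 0.10, adjusted p = 0.00309), as it did in A549, and NPC2 rose (0.41 ± 0.07, adjusted p = 7.5e-04). PSAP went down in all treated libraries without passing the test (-0.23 ± 0.07, adjusted p = 0.0126). Among the proton pump genes ATP6V0D1 fell (-0.45 ± 0.07, adjusted p = 3.7e-04), ATP6AP1 rose (0.22 ± 0.05, adjusted p = 0.00328) and ATP6V1H did not pass the test (-0.25 ± 0.09, adjusted p = 0.0413).

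**Figure D3:**
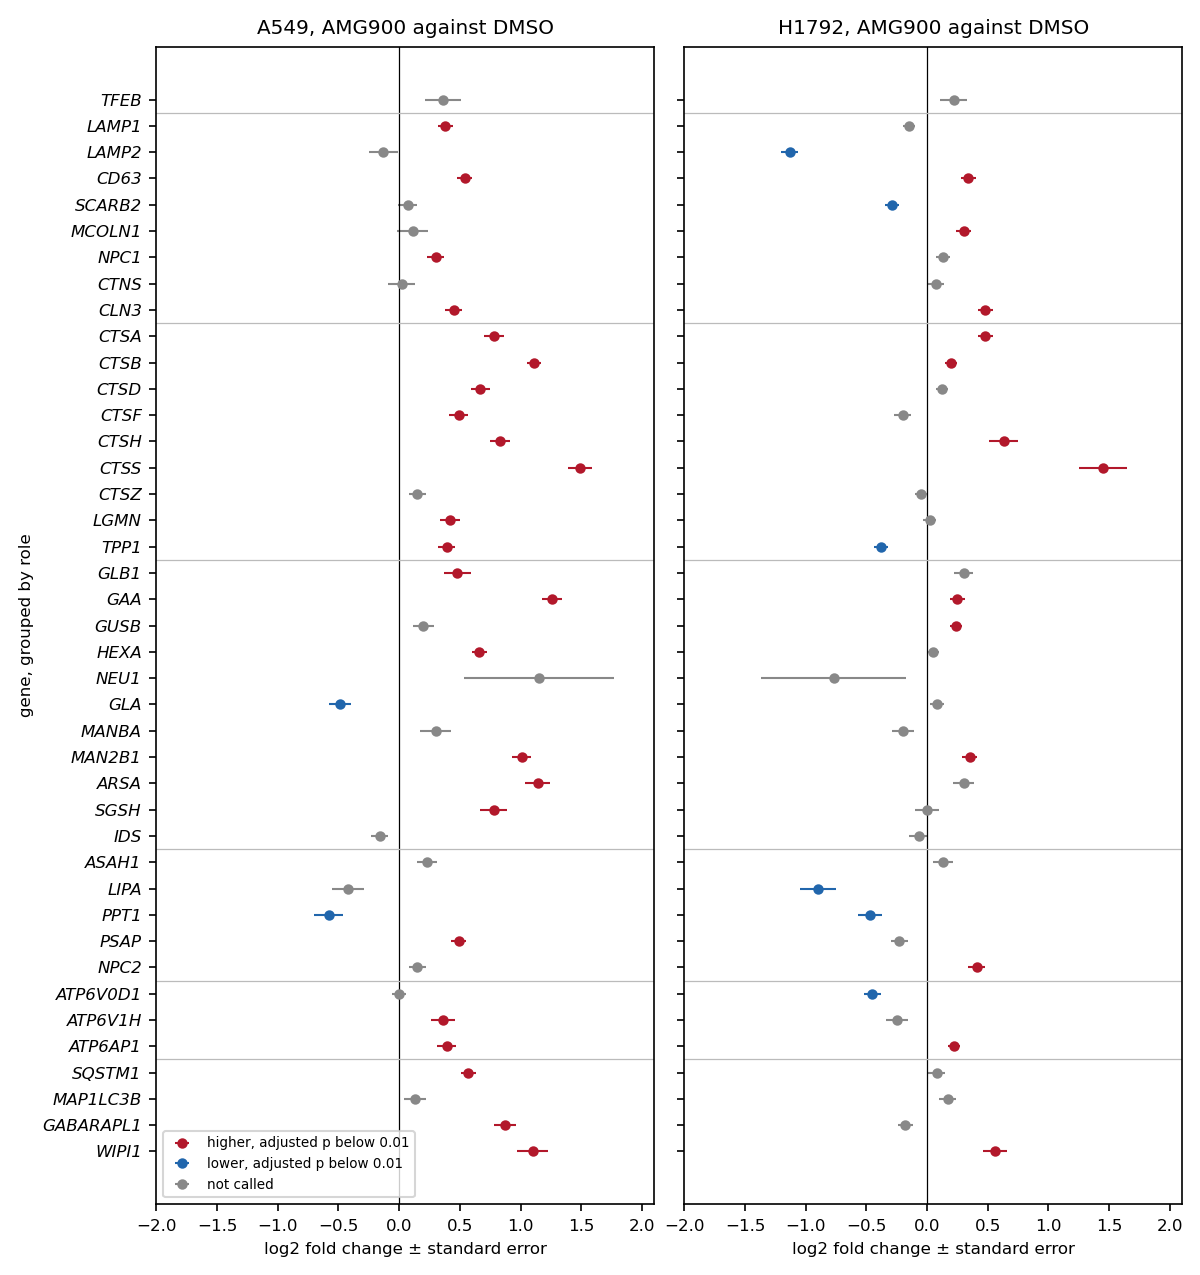
Log2 fold change, AMG900 against DMSO, of each member with its standard error as a bar, A549 at the left and H1792 at the right, with red for higher, blue for lower and grey for not called at an adjusted p of 0.01. In A549 24 points are red, and in H1792 13 are red and 6 blue.

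The same direction was called in both lines for 11 members, with 10 higher (CD63, CLN3, CTSA, CTSB, CTSH, CTSS, GAA, MAN2B1, ATP6AP1 and WIPI1) and 1 lower (PPT1). Over all genes tested, 17.2% were called higher in A549 and 16.2% in H1792, and the share called in both was not counted. After GC correction CD63, CLN3, CTSA, CTSB, GAA, MAN2B1 and ATP6AP1 lost the H1792 call, and CLN3 and ATP6AP1 also the A549 call. TPP1 was called in opposite directions, and TFEB, CTNS, CTSZ, NEU1, MANBA, IDS, ASAH1 and MAP1LC3B were called in neither line. A test of the difference between the effects (line by treatment interaction, edgeR) put 18 members lower in H1792 than in A549 and 1 higher. That is 43.9% of members lower, where 9.17% of the 14769 genes tested were called lower, and 2.44% higher, where 5.37% were. The median difference was -0.48 over the members and -0.10 over all genes. With DESeq2's size factors in edgeR, 17 members were lower and 1 higher, and the split over all genes went from 793 higher and 1355 lower to 1012 higher and 1033 lower, with the median of all genes at -0.02.

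The widest called differences, H1792 minus A549, were GABARAPL1 (-1.12 ± 0.11, adjusted p = 2.1e-07), GAA (-1.09 ± 0.11, adjusted p = 2.4e-07) and LAMP2 (-1.07 ± 0.15, adjusted p = 3.5e-05). CTSB (-0.99 ± 0.08, adjusted p = 1.2e-08), ARSA (-0.92 ± 0.15, adjusted p = 1.8e-04), SGSH (-0.86 ± 0.15, adjusted p = 3.3e-04), TPP1 (-0.85 ± 0.09, adjusted p = 8.0e-07) and PSAP (-0.80 ± 0.09, adjusted p = 2.2e-06) followed. These 5 genes encode enzymes and cofactors of protein, glycan and sphingolipid breakdown. CTSF, MAN2B1, ATP6V1H, HEXA, CTSD, LAMP1, SQSTM1, ATP6V0D1, LGMN and SCARB2 were also lower, by -0.77 to -0.44. GLA was the member with a higher effect in H1792 (0.50 ± 0.12, adjusted p = 0.00547), a call that 10 of the 14 fits with 1 library left out lost. For CTSS (-0.11 ± 0.21), CLN3 (-0.05 ± 0.10), MAP1LC3B (-0.03 ± 0.11) and PPT1 (0.04 ± 0.16) the difference was small beside its standard error. WIPI1 (-0.61 ± 0.17, adjusted p = 0.0154) and CTSA (-0.37 ± 0.11, adjusted p = 0.0198) missed the threshold.

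Before treatment the lines already differed. With DMSO, 25 members were lower in H1792 and 7 higher, 61% and 17.1% of members, where 31.9% and 34.2% of the 14769 genes were. The median difference was -0.62 over the members and 0.04 over all genes. Levels in this paragraph are CPM scaled over both tables, mean ± SD (n = 4 in A549 and n = 3 in H1792), and line, medium and table cannot be told apart. CTSS differed most, at 34.3 ± 6.2 CPM in A549 and 1.14 ± 0.21 CPM in H1792 (log2 difference -4.96 ± 0.16, adjusted p = 6.1e-16). CTSH stood at 37.1 ± 2.0 and 4.98 ± 0.57 CPM (-2.90 ± 0.10, adjusted p = 4.8e-15), ASAH1 at 135 ± 13 and 20.5 ± 0.35 CPM (-2.72 ± 0.09, adjusted p = 1.7e-15) and NPC2 at 379 ± 30 and 68.2 ± 6.3 CPM (-2.48 ± 0.08, adjusted p = 1.0e-15). SQSTM1 stood at 2983 ± 175 CPM in A549 and 719 ± 72 CPM in H1792 (-2.05 ± 0.07, adjusted p = 4.2e-15). Among the proteases 7 of 9 were lower and 0 higher, among the proton pump genes 3 of 3 were lower and among the lipid-handling genes 4 of 5.

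GABARAPL1 was the member highest in H1792 relative to A549, at 77.9 ± 3.6 CPM against 31.9 ± 3.1 CPM (1.27 ± 0.08, adjusted p = 1.6e-11). GUSB stood at 109 ± 0.85 CPM in H1792 and 45.8 ± 2.1 CPM in A549 (1.25 ± 0.07, adjusted p = 4.3e-12). PPT1, MAN2B1, MCOLN1, WIPI1 and SGSH were higher by 0.49 to 0.71. GAA did not pass the test with DMSO (0.20 ± 0.08, adjusted p = 0.0238), nor did MAP1LC3B (adjusted p = 0.962). Per kilobase of transcript, the highest DMSO levels among members in A549 were SQSTM1 (1099 CPM per kb), PSAP (825), CTSD (719) and CD63 (612). In H1792 PSAP (329.6 CPM per kb), CTSD (311), SQSTM1 (247) and CD63 (155) led, and with NEU1 left out for its counts CTSS (0.282) was lowest.

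**Figure D4:**
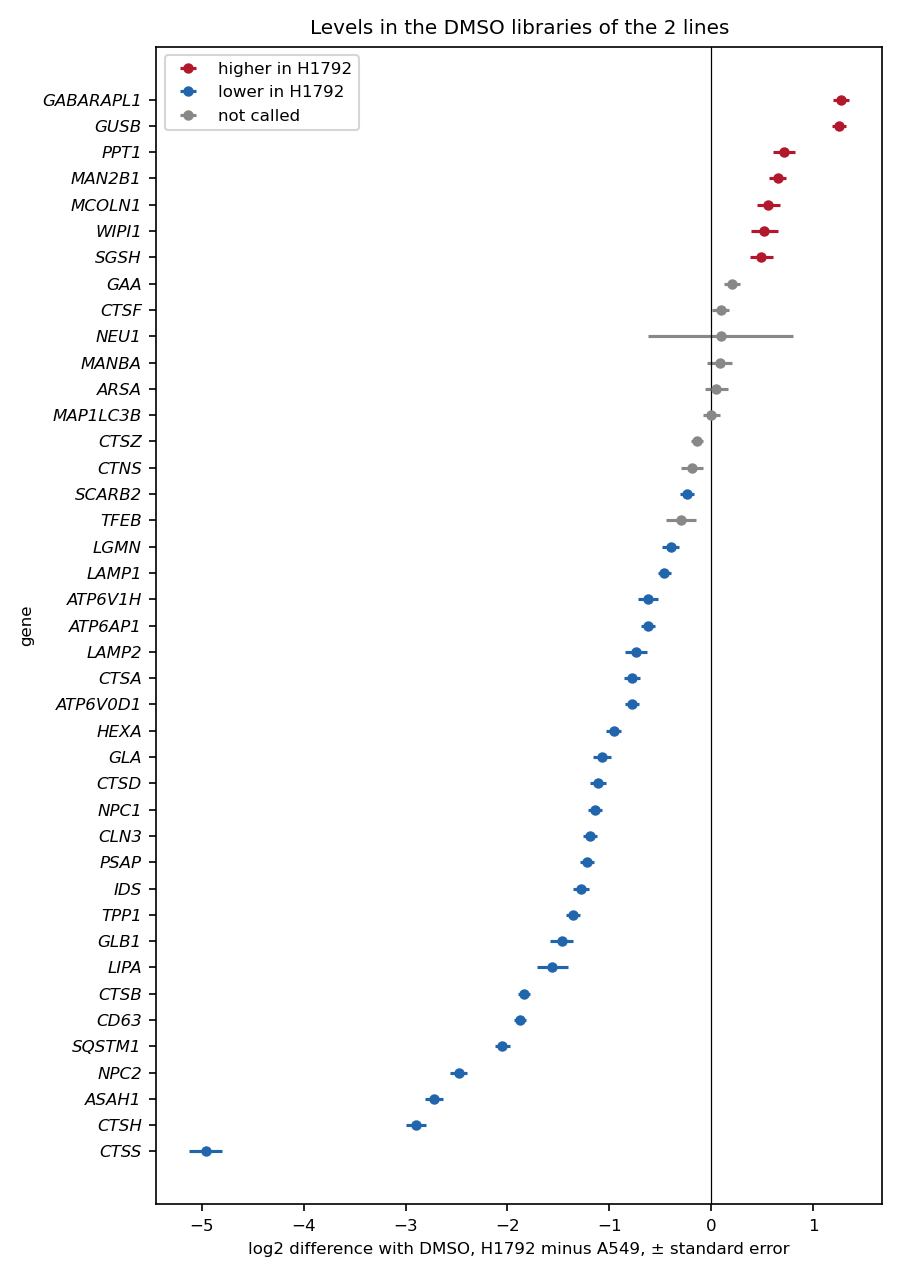
Difference in level with DMSO, H1792 minus A549 on the log2 scale, for the 41 members sorted from low to high, with the standard error as a bar and colour for the call at an adjusted p of 0.01. The 25 blue members lie to the left, with CTSS at -4.96, and the 7 red ones end at GABARAPL1 at 1.27.

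A further list of 111 pathway genes, beside the members, was read in the same fits. In A549 38 rose and 11 fell of 110 tested (34.5% and 10%, beside 17.2% and 17.8% of all genes, median 0.13), and in H1792 20 rose and 25 fell of 111 (18% and 22.5%, beside 16.2% and 18.8% of all genes, median -0.03). The same all-gene shares stand behind the counts by role that follow, and the H1792 shares of the list lie near them. Of 25 other hydrolases and cofactors, 12 were higher and 2 lower in A549. GM2A, the ganglioside activator protein, rose by 1.40 ± 0.12 (adjusted p = 2.5e-07) and the iduronidase IDUA by 1.36 ± 0.15 (adjusted p = 4.0e-06), while GALC, which degrades galactosylceramide, fell (-0.95 ± 0.19, adjusted p = 9.2e-04). In H1792 3 of the 25 were higher and 5 lower, with IDUA up (0.85 ± 0.11, adjusted p = 1.3e-04) and CREG1 (-0.75 ± 0.08, adjusted p = 3.4e-05) down.

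The 15 other proton pump subunits included 8 higher and 2 lower in A549 and 6 higher and 5 lower in H1792. ATP6V0C, of the proton-conducting ring, rose in A549 (0.61 ± 0.08, adjusted p = 1.9e-05), and ATP6V1F rose in A549 (0.60 ± 0.12, adjusted p = 6.3e-04) and in H1792 (0.71 ± 0.07, adjusted p = 3.1e-05). The nucleotide-binding subunit ATP6V1B2 fell in A549 (-1.25 ± 0.18, adjusted p = 5.8e-05) and in H1792 (-0.66 ± 0.10, adjusted p = 4.6e-04). ATP6V1A fell in H1792 (-0.85 ± 0.11, adjusted p = 1.4e-04). Among 14 other membrane proteins, 6 rose and 1 fell in A549 (13 tested), and 3 rose and 3 fell in H1792. CD68 rose by 1.09 ± 0.10 in A549 (adjusted p = 6.0e-07) and 0.78 ± 0.07 in H1792 (adjusted p = 1.9e-05). LAPTM4B fell by 0.69 in A549 and 0.51 in H1792 on the log2 scale. OSTM1 fell in H1792 (-1.39 ± 0.10, adjusted p = 6.1e-06). Of the 6 genes for delivery of enzymes to the lysosome, GNPTG rose in A549 (1.20 ± 0.12, adjusted p = 1.4e-06), and the mannose 6-phosphate receptors IGF2R (-0.49 ± 0.06, adjusted p = 5.8e-05) and M6PR (-0.37 ± 0.06, adjusted p = 8.5e-04) fell in H1792.

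Of 29 genes of the core autophagy machinery, 5 rose and 4 fell in A549, and 3 rose and 7 fell in H1792, with medians of -0.12 and -0.04. ATG2A, a lipid transfer protein, rose in A549 (0.87 ± 0.09, adjusted p = 3.6e-06). The WIPI family gene WDR45 rose in A549 (0.72 ± 0.09, adjusted p = 1.2e-05) and H1792 (0.64 ± 0.05, adjusted p = 1.1e-05). ULK2 (-0.79 ± 0.13, adjusted p = 1.9e-04) and EPG5 (-0.61 ± 0.13, adjusted p = 0.00185) fell in A549. ATG5, needed to attach lipid to LC3 (-1.41 ± 0.15, adjusted p = 4.4e-05), and RB1CC1 (-1.24 ± 0.14, adjusted p = 5.4e-05) fell in H1792. Of 8 other LC3 family genes and cargo receptors, 3 rose and 1 fell in A549, and 3 rose and 2 fell in H1792. MAP1LC3A rose in A549 (0.81 ± 0.13, adjusted p = 1.4e-04) and in H1792 (0.79 ± 0.09, adjusted p = 5.8e-05). CALCOCO2 fell in A549 (-0.45 ± 0.11, adjusted p = 0.00461). In H1792 the falls were MAP1LC3B2 (-0.78 ± 0.18, adjusted p = 0.00467) and GABARAPL2 (-0.65 ± 0.09, adjusted p = 1.7e-04). Among 14 genes of the TFEB family and of the Rag and Ragulator complexes that recruit mTORC1 to the lysosome, 2 rose and 1 fell in each line. LAMTOR2 rose in both (0.77 ± 0.10, adjusted p = 1.8e-05, and 0.33 ± 0.07, adjusted p = 0.00255) and TFE3 rose in H1792 (0.25 ± 0.05, adjusted p = 0.00216).

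The log2 fold changes of all genes rose with transcript GC content in both lines (Spearman's rho 0.50 in A549 over 12771 genes and 0.48 in H1792 over 14376, a description across genes that share the same libraries). The members had a median GC content of 52%, against 49.3% and 49.5% for all genes, and a rho of 0.38 and 0.29 over their 41 values. With a smooth GC term removed from each library, 24 members were called higher in A549 and 3 lower (13.8% and 19% of all genes), and 19 of the 24 were shared with the uncorrected calls. LAMP1, CLN3, CTSF, SGSH and ATP6AP1 dropped out, and ASAH1, LAMP2, MANBA, MAP1LC3B and SCARB2 came in. The A549 rises of CTSB (1.00), CTSS (1.93), WIPI1 (1.08), GABARAPL1 (0.85), GAA (0.78) and ARSA (0.75) passed the test after correction. LAMP2 turned from -0.13 to 0.41 in A549 (adjusted p = 0.00398), and TFEB turned from 0.36 to -0.13 without a call in either fit.

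In H1792 the correction changed more. Of the 13 genes called higher, 4 kept the call (CTSH, CTSS, NPC2 and WIPI1) and 9 lost it, among them GAA (0.25 to -0.13), MAN2B1 (0.35 to 0.01) and CTSA (0.48 to 0.22). Of the 6 called lower, 5 kept the call, with LAMP2 at -0.50 (adjusted p = 3.2e-04), and 8 genes including LAMP1 (-0.37), CTSD (-0.24), PSAP (-0.43) and SQSTM1 (-0.18) joined them. The difference between lines was less affected, with 20 members lower in H1792 and 1 higher (11.6% and 6.76% of all genes). The part of the GC trend in these results was not tested further.

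**Figure D5:**
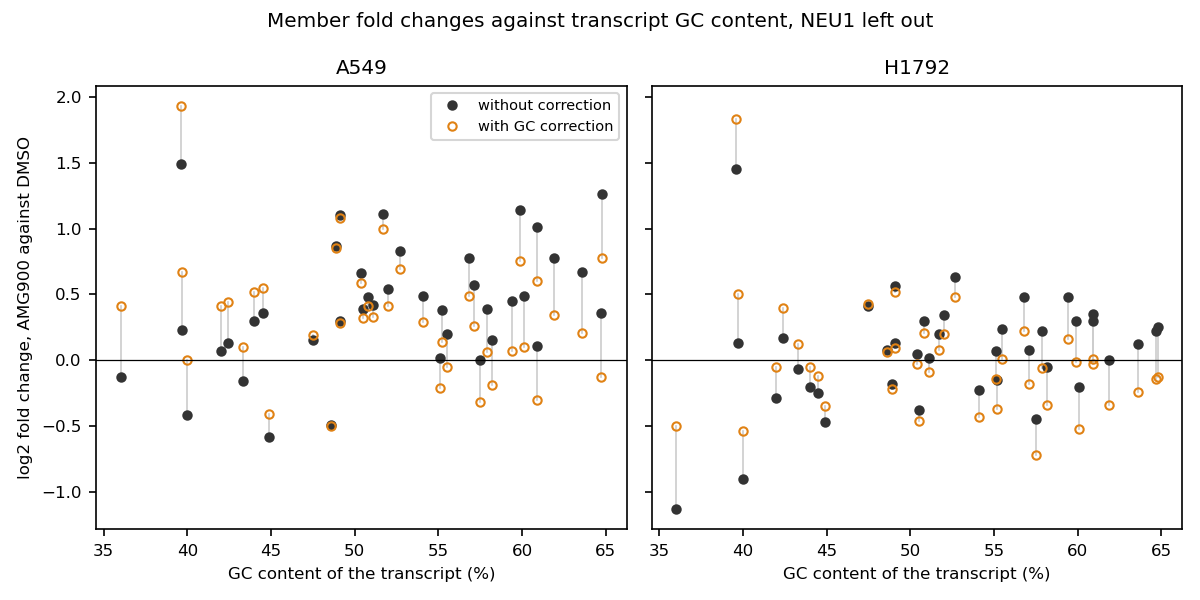
Log2 fold change of 40 members against the GC content of their transcripts, without correction (black, filled) and with a GC term removed from each library (orange, open), a grey line joining the 2 values of a gene; NEU1 is left out for its low counts. GC-rich members move down and GC-poor members up, so that more of the H1792 points fall below 0 after correction.

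Among the 30 members with a promoter window, 5 of the 7 that held GTCACGTG were called higher in A549 and 11 of the 23 that did not, with median log2 fold changes of 0.45 and 0.36. For TCACGTGA the counts were 4 of 6 and 12 of 24, with medians of 0.42 and 0.38. For the E-box CACGTG they were 7 of 10 and 9 of 20, with medians of 0.52 and 0.25, and the first median was 0.49 without NEU1. Over all genes tested in A549, 17.2% were called higher, and the share among all genes that hold a motif was not counted. The difference between holders and others was not tested. In H1792 the medians of holders and others were 0.25 and 0.08, 0.28 and 0.10, and 0.18 and 0.11 for the same motifs. Without NEU1 the E-box holders had a median of 0.25 in H1792. The windows printed above came from genes at 1.26 (GAA), 0.78 (CTSA), 0.67 (CTSD), 0.38 (LAMP1) and 0.00 (ATP6V0D1) in A549. Exons of 9 members overlap those of another coding gene, CTSA, CTSZ, CLN3 and WIPI1 among them, and the strand setting of the counting was not stated.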

How the data were processed

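The authors deposited 1 table of raw read counts per gene symbol for each line (14 libraries); the submitters' processing notes name STAR, HTSeq and hg19 (GRCh37), and versions, options and strand setting are not given in the sources used here. Groups came from the sample labels. From the deposited counts, genes low in a line were removed with filterByExpr, libraries were scaled by TMM, and edgeR 4.0.16 (R 4.3.3) quasi-likelihood tests were fitted per line, and over all 4 groups for the difference between lines and the DMSO levels, with Benjamini-Hochberg adjustment over all genes tested and a threshold of 0.01. The biological coefficient of variation was 12.8% in A549 and 9.6% in H1792. Counts were simulated with the spread that edgeR itself estimated from these data. In them 200 genes were changed 2-fold, up or down in equal number, all with a mean of at least 100 counts. Of these, 95% (A549), 94.5% (H1792) and 77.5% (difference between lines) were recovered, and 1.55%, 3.08% and 1.27% of the calls fell on unchanged genes. Changes below 2-fold, as most members showed, and changes in genes with lower counts were not simulated. Nor were the GC trend, a library that stands apart, or as many changed genes as were called here. The simulated shares therefore do not give the error rate of the calls above. Transcript GC content, length and GRCh37 positions came from GENCODE v44lift37. Alternatives were DESeq2 1.42.0, other scalings, filters and thresholds, a replicate block, GC and length terms (splines with 5 degrees of freedom) and leaving out each library. The members, the lists and the rule for named genes (every member; per role and line, up to 2 rises and 2 falls of other genes with a mean of 100 counts) were chosen with earlier results of these data known. Windows on chromosome 8 were not printed. The counts are not molecule-tagged, and no pair of libraries was identical.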

Additional observations from a re-analysis of the deposited data

Results flagged for a closer look

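In all, 5 values stood apart within their group of A549 libraries, where the gap to the nearest library, as a ratio to the group's range, exceeded Dixon's critical value for 4 samples. CLN3 in AMG900 replicate 2 stood at 112.9 CPM, against 122.9 to 123.7 in the others (ratio 0.926). The other 4 were all in DMSO replicate 1, the shallowest library. CTSA was low there (281.3 against 354.7 to 363.5 CPM, ratio 0.893), as was GLB1 (121.7 against 172.4 to 180.3 CPM, ratio 0.866), while CTSZ (294.2 against 251.6 to 257.5 CPM, ratio 0.861) and ARSA (46.06 against 37.52 to 38.69 CPM, ratio 0.863) were high. These are 5 of 82 tests, and chance flags about 1 in 20.

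The effect of AMG900 differed between the lines for 19 members by the interaction test in edgeR at an adjusted p of 0.01. The log2 effect in H1792 minus that in A549 was -0.61 for LAMP1, -1.07 for LAMP2 and -0.44 for SCARB2 among the membrane proteins. Among the proteases it was -0.99 for CTSB, -0.62 for CTSD, -0.77 for CTSF, -0.48 for LGMN and -0.85 for TPP1. Among the glycosidases and sulfatases it was -1.09 for GAA, -0.68 for HEXA, 0.50 for GLA, -0.74 for MAN2B1, -0.92 for ARSA and -0.86 for SGSH. It was -0.80 for PSAP, -0.53 for ATP6V0D1, -0.69 for ATP6V1H, -0.56 for SQSTM1 and -1.12 for GABARAPL1.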

How the results depend on the processing

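Leaving out 1 library at a time gave 22 to 25 members higher and 2 to 3 lower in A549. Of all genes, 13.8% to 21.4% were called higher there and 13.9% to 22.1% lower. In H1792 these fits gave 7 to 17 members higher and 4 to 9 lower. Of all genes, 9.13% to 20.1% were called higher in H1792 and 12.2% to 24.1% lower. In H1792 the count higher was 8 without AMG900 replicate 1, 7 without AMG900 replicate 2 or DMSO replicate 3, and 17 without DMSO replicate 1. Between lines, 0 to 1 members had a higher change in H1792 and 18 to 23 a lower one (4.02% to 7.68% and 6.44% to 12.9% of all genes). With DMSO, 7 to 8 were higher and 24 to 25 lower (31.7% to 35.6% and 27.4% to 33% of all genes). The medians were 0.38 to 0.43 in A549 and 0.06 to 0.10 in H1792. Other pathway genes gave 33 to 43 higher and 7 to 16 lower in A549 (7 without AMG900 replicate 2, 16 without DMSO replicate 1) and 11 to 22 higher and 17 to 32 lower in H1792 (11 without AMG900 replicate 1 or 2 or DMSO replicate 3).

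With a 2-fold minimum, 6 members were higher and 0 lower in A549 (5.28% and 5.84% of all genes), and 1 was higher and 1 lower in H1792 (3.17% and 5.2%). The difference between lines then held 0 higher and 3 lower members (2.67% and 3.49% of all genes), the DMSO levels 2 higher and 16 lower (20.1% and 19%), and the other pathway genes 5 higher and 4 lower in A549 and 1 and 3 in H1792. At a threshold of 0.05, 15 members were higher and 11 lower in H1792 (24.6% and 25.8% of all genes), 25 higher and 3 lower in A549 (23.9% and 25.2%), and 43 other pathway genes were higher and 17 lower in A549. Scaling by total counts gave 10 members lower in H1792 (21.5% of all genes) and 13 other pathway genes higher (12.4% of all genes). The medians over the members were then 0.32 in A549 and 0.02 in H1792. A minimum of 10 counts in every library gave medians of 0.42 and 0.12.

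GC correction gave 6 members higher and 13 lower in H1792 (14.5% and 23.2% of all genes) and medians of 0.33 in A549 and -0.05 in H1792. With length added, 4 were lower in A549 (18.7% of all genes), and 7 higher and 14 lower in H1792 (14.6% and 23.5%). The medians were 0.34 and -0.05. Signs turned under these corrections, and the cause was not tested beyond their construction. In A549, GC and GC with length gave 0.41 and 0.45 for LAMP2 and -0.32 and -0.38 for ATP6V0D1, and GC with length gave -0.25 for CTSZ. In H1792 they gave -0.03 and -0.08 for MCOLN1, -0.24 and -0.28 for CTSD, -0.13 and -0.05 for GAA, -0.34 and -0.34 for SGSH, -0.06 and -0.12 for ATP6AP1 and -0.18 and -0.17 for SQSTM1. GC with length gave 0.01 for SCARB2, -0.15 for LGMN and -0.04 for GUSB in H1792. The DMSO difference became 0.03 for SCARB2 with GC and length and 0.19 for MAP1LC3B with GC.

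Replicate numbers did not pair the samples (correlations of deviations -0.07 to 0.04). With the replicate block, 22 members were higher and 2 lower in A549 (14.6% and 15.1% of all genes). In H1792 10 were higher and 6 lower (14.5% and 17.4% of all genes). Over all genes, calls went from 4605 to 3907 in A549 and from 5266 to 4788 in H1792. The difference between lines then held 18 lower members and 0 higher (6.66% and 4.09% of all genes), since GLA missed the threshold. The other pathway genes gave 35 higher and 11 lower in A549 and 17 and 22 in H1792, and the medians were 0.40 and 0.09. The block could not be fitted for the DMSO levels. DESeq2 gave 24 members higher and 3 lower in A549 (19.4% and 20.1% of all genes), and 15 and 7 in H1792 (18.3% and 21.6%). A549 had the shallower libraries, and NEU1, with 2 to 25 counts, had the widest standard errors (0.62 in A549 and 0.60 in H1792).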
